A study of Mus musculus with 4 samples.

Results

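Voltage-gated sodium and calcium channel genes were followed across the cell types of the mouse cortex and between pregnant and non-pregnant mice. The members were all genes whose symbols name a sodium channel alpha or beta subunit (Scn), a calcium channel alpha1 subunit (Cacna1), or an alpha2delta (Cacna2d), beta (Cacnb) or gamma (Cacng) subunit. This gave 40 of the 33696 genes in the files. Nuclei came from cortex of wild-type C57BL/6JRj females aged about 12 weeks, 2 of them non-pregnant and 2 pregnant and taken at E13.5. No group carried a transgene or other treatment, and the sources used here do not name the area of cortex.

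A voltage-gated sodium channel is a pore-forming alpha subunit with small beta subunits that adjust its gating and anchor it in the membrane, and it carries the rising phase of the action potential. A voltage-gated calcium channel is built on an alpha1 subunit, which sets whether the current is of the L-type, the P/Q-, N- or R-type of nerve terminals and dendrites, or the low-threshold T-type. Beta subunits sit on the inner side and promote surface expression, alpha2delta subunits sit outside and promote trafficking and synaptic placement, and most of the gamma family are better known as TARPs, which escort AMPA-type glutamate receptors to the synapse.

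The 4 libraries held 26816 barcodes and 423916014 UMIs (unique molecular identifiers, 1 per captured RNA molecule), between 97875766 and 116860425 a library. After filtering, 5949 to 6503 nuclei a library were kept. Pairs of libraries shared 20 to 31 barcodes, at most 0.464% of the smaller library. Non-pregnant replicate 2 was the deepest, with a median of 17723 UMIs per barcode against 13187.5 to 14330.5 in the other libraries. Levels are given as CPM, the gene's share of all UMIs summed over a cell type in a library, on the usual count scale. They are not scaled to transcript length, so each gene is compared across cell types and groups and not with other genes. Nuclei were named by markers, and the 16 types that had 50 nuclei or more in each library were tested. Excitatory neurons are called IT where they project within the telencephalon, ET out of it, NP nearby and CT to the thalamus, and Pvalb, Sst, Vip, Lamp5 and Sncg are classes of inhibitory interneurons. The Sncg name is the least firm, since its Sncg marker score was 1.71 and its Lamp5 score 1.52. In all, 5 clusters of excitatory neurons were nearly limited to the pregnant libraries (the largest held 404 and 300 nuclei there and 23 and 2 in the non-pregnant libraries). They were left out of the named types but remain in the sums over the whole library and over excitatory neurons.

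Of the 40 members, 6 were nearly undetected, with 3 to 90 UMIs over all nuclei: Scn4a, the channel of skeletal muscle, Scn10a and Scn11a, known from pain-sensing neurons, Cacna1s, the muscle L-type channel, Cacng1 and Cacng6. A further 2 were low, with a highest mean of 8.48 CPM for the beta subunit gene Scn4b and 3.51 CPM for Cacna1f, the L-type channel of photoreceptors. The other 32 members reached 10 CPM or more in at least 1 tested type, and their profiles are in the map of levels by cell type.

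**Figure D1:**
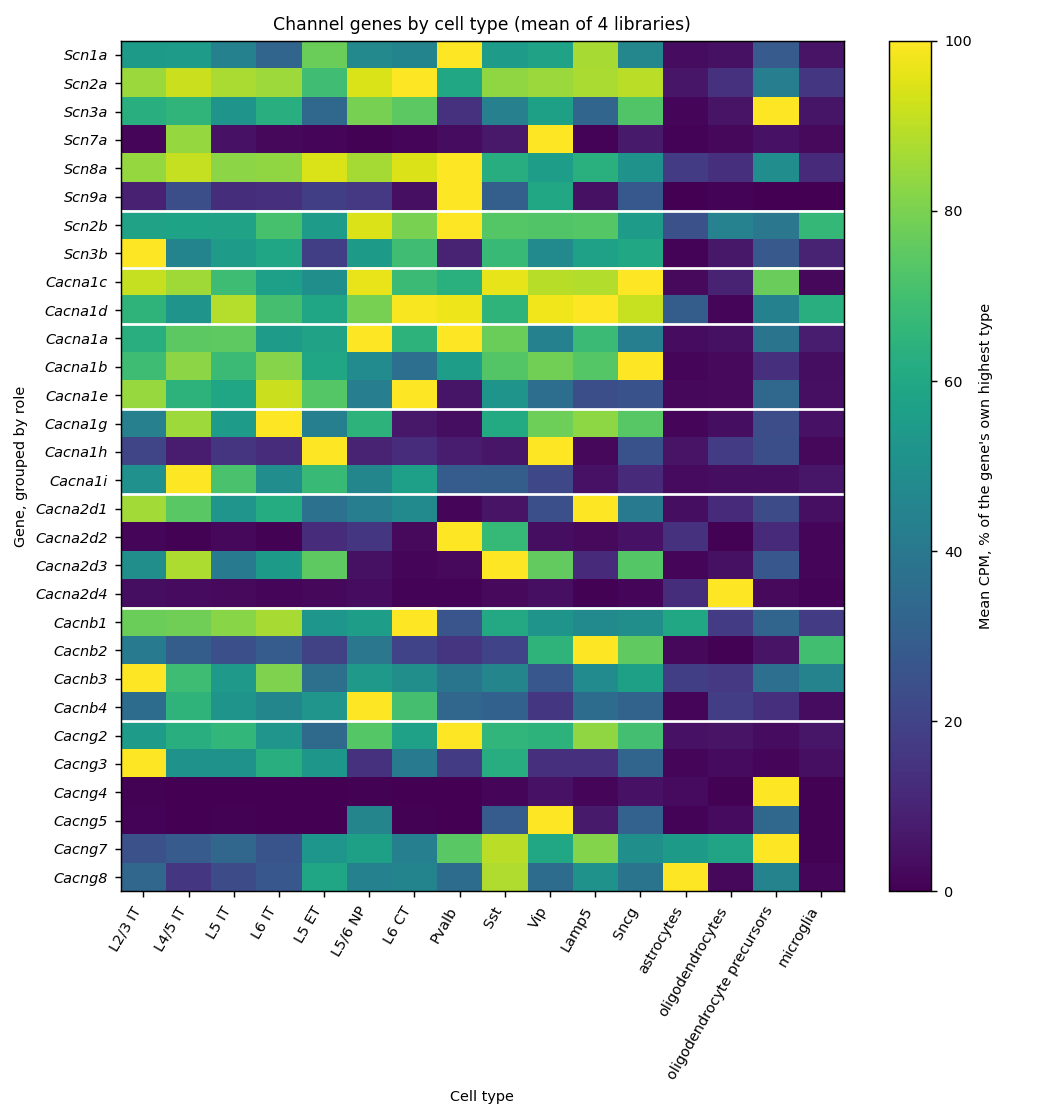
Mean level of 30 of the 32 members that reached 10 CPM in a tested cell type. Columns are the 16 tested cell types, rows are genes grouped by role with white lines between roles, and colour is the mean CPM over 4 libraries as a percentage of that gene's own highest type. Cacna2d4 is bright in oligodendrocytes alone, while Scn2a and Scn8a are bright across all neuronal types.

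Among sodium channel alpha genes, Scn1a, the main sodium channel of fast-spiking interneurons, was highest in Pvalb neurons at 829 ± 19.0 CPM (SD, n = 4 libraries here and for all levels by type). Lamp5 neurons followed at 719 ± 47.2, overlapping L5 ET neurons at 644 ± 35.7, and both were apart from Pvalb neurons and from all other types. Scn1a was lowest among neurons in L6 IT neurons, at 269 ± 19.9. Scn2a, which serves mainly excitatory neurons and immature axons, ran the other way: L6 CT neurons had 483 ± 31.7 and Pvalb neurons, the lowest of the neuronal types, 289.8 ± 11.7. Scn8a, the channel that predominates at mature axon initial segments, varied less, from 181 ± 4.08 in Sncg to 353 ± 10.2 in Pvalb neurons. Scn3a, a largely prenatal channel gene, was highest outside neurons, in oligodendrocyte precursors at 212 ± 14.1, and its libraries there did not overlap those of the next type, L5/6 NP neurons, at 169 ± 6.84.

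Scn7a and Scn9a were narrower. Scn7a, an atypical channel related to sodium sensing, was at 31.5 ± 5.30 CPM in Vip and 26.6 ± 5.59 in L4/5 IT neurons, which overlapped, and at 2.27 ± 0.693 or below elsewhere. Scn9a, best known from peripheral pain neurons, was highest in Pvalb neurons (101 ± 8.67) and next in Vip neurons (60.8 ± 11.8), without overlap. Among beta subunits, Scn3b was highest in L2/3 IT (56.0 ± 6.31) and among the lowest in Pvalb neurons (5.68 ± 2.10). Scn2b varied gradually, from 25.6 ± 4.46 in Pvalb neurons to 6.41 ± 4.25 in astrocytes, and its 16 types overlapped from each to the next.

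For the L-type alpha1 genes, Cacna1c was broad in neurons, between 371 ± 86.6 CPM in L5 ET and 742 ± 39.1 in Sncg neurons, and as high in oligodendrocyte precursors (573 ± 42.8). It reached 2242 ± 461 in mural cells, the contractile cells of small vessels, where only 10 to 24 nuclei a library were found. Cacna1d, the L-type gene that opens at lower voltage, was at 304 ± 7.15 to 588 ± 66.0 in neurons and at 369 ± 36.9 in microglia. Among the genes of nerve-terminal currents, Cacna1a (P/Q-type) was highest in Pvalb (808 ± 12.5) and L5/6 NP neurons (806 ± 43.9), which overlapped each other and no other type. Cacna1b (N-type) was highest in Sncg neurons (303 ± 13.3) and lowest among neurons in L6 CT neurons (110.5 ± 7.32). Cacna1e (R-type) had the widest fold range of these 3 genes among neurons, from 666 ± 38.8 in L6 CT down to 36.7 ± 7.68 in Pvalb neurons.

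The T-type genes divided the types differently. Cacna1g, known for thalamic burst firing, was between 29.1 ± 2.99 and 67.6 ± 7.0 CPM in 10 neuronal types but at 4.38 ± 1.01 in L6 CT and 2.59 ± 1.08 in Pvalb neurons. Cacna1h was at 33.6 ± 3.34 in L5 ET and 33.6 ± 5.80 in Vip neurons and at 8.47 ± 3.64 or below in the other 14 types. Cacna1i was highest in L4/5 IT neurons (76.4 ± 5.00), apart from the next type, L5 IT (54.5 ± 4.92).

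Alpha2delta genes had the strongest contrasts between neuron types. Cacna2d1, the gabapentin-binding subunit, was at 1723 ± 74.6 CPM in Lamp5 neurons, apart from L2/3 IT neurons at 1485 ± 75.7, and was lowest of all 16 types in Pvalb neurons, at 20.5 ± 5.11, without overlap. Cacna2d2 was the reverse, at 174 ± 11.2 in Pvalb and 117 ± 16.2 in Sst neurons and at 27.7 ± 3.25 or below elsewhere. Cacna2d3 was at 1594 ± 129 in Sst neurons, overlapping L4/5 IT neurons at 1397 ± 95.5, while L6 CT neurons had the lowest mean of all 16 types, 21.7 ± 10.6, overlapping astrocytes. Cacna2d4 was at 43.1 ± 13.4 in oligodendrocytes and at 5.71 ± 2.23 or below elsewhere.

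Of the beta subunits, Cacnb2 was highest in Lamp5 neurons (1182 ± 24.2 CPM), then Sncg neurons, microglia (823 ± 51.5) and Vip neurons, whose libraries overlapped in that order. Cacnb4, the beta subunit whose loss causes epilepsy in the lethargic mouse, was highest in L5/6 NP neurons (1589 ± 117), apart from L6 CT neurons (1123 ± 133). Cacnb1 (at most 37.7 ± 5.90, in L6 CT) and Cacnb3 (at most 26.7 ± 3.86, in L2/3 IT) varied gradually. In the gamma family, Cacng2 (stargazin, the first TARP described) was at 65.1 ± 9.36 to 187 ± 14.7 in neurons, lowest in L5 ET and highest in Pvalb. Cacng3 was highest in L2/3 IT neurons (471 ± 35.1). Cacng4 was at 645 ± 59.4 in oligodendrocyte precursors, against 31.3 ± 4.94 in Vip neurons, the next type. Cacng5 was highest in Vip neurons (36.8 ± 14.2), Cacng7 in oligodendrocyte precursors (69.6 ± 17.6) and Cacng8 in astrocytes (75.5 ± 6.11), the last pair each overlapping Sst neurons.

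Glial sums also held markers of excitatory neurons, and the source of these (free RNA, mixed barcodes) was not tested. The 7 markers of excitatory neurons summed to 194 CPM in astrocytes (15.0% of their level in excitatory neurons), 318 in oligodendrocytes (24.5%), 186 in oligodendrocyte precursors (14.3%) and 392 in microglia (30.2%). Each compared member was set against its own level in excitatory neurons. By this measure 24 of 28 members compared stood above that percentage in oligodendrocyte precursors, 10 of 27 in astrocytes, 5 of 26 in oligodendrocytes and 5 of 25 in microglia. Those in microglia included Scn2b, Cacna1d, Cacnb2 and Cacnb3, with Cacnb2 at 207% of its excitatory level. Those in oligodendrocytes included Scn2b, Cacna2d4, Cacnb4 and Cacng7. The other members compared were at or below that percentage in these types, and their levels there are not read as expression by glia.

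Inhibitory and excitatory neurons were then compared within the same 4 animals, with edgeR and the animal as a block. The nuclei had been clustered without the member genes. Of 34 members tested, 31 differed at adjusted p under 0.05, 11 higher in inhibitory and 20 higher in excitatory neurons, and 59.3% of all 18145 genes tested differed (29.3% higher and 30.0% lower in inhibitory neurons). Cacna1a and Cacnb2 were among those that did not pass. The median log2 difference over the 34 was -0.38, against 0.01 over all genes.

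The genes higher in inhibitory neurons were led by the narrow ones. Cacna2d2 stood at 96.0, 117, 103 and 100.0 CPM in the inhibitory sums of non-pregnant replicates 1 and 2 and pregnant replicates 1 and 2, and at 3.21, 3.73, 5.94 and 5.19 in the excitatory sums. Its log2 difference was 4.38 (SE 0.18, adjusted p = 4.02e-05), and inhibitory neurons were higher in 4 of 4 animals. Cacng5 (3.78, SE 0.21), Cacng4 (2.45, SE 0.13), Scn9a (1.77, SE 0.06) and Cacng7 (1.06, SE 0.06) were also higher in 4 of 4 animals. Scn1a was higher by a log2 difference of 0.30 (SE 0.04), with 609 to 660 CPM in inhibitory and 401 to 472 in excitatory neurons.

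On the excitatory side, Cacna2d1 had 1189, 1342, 1092 and 1130 CPM in excitatory sums and 373, 313, 309 and 350.1 in inhibitory sums, in the same order of libraries. Its log2 difference was -1.99 (SE 0.07, adjusted p = 8.79e-08 by edgeR), the lowest of all members. Cacna1e followed at -1.75 (SE 0.05), Cacna1i at -1.72 (SE 0.12) and Cacng3 at -1.34 (SE 0.06), each lower in inhibitory neurons in 4 of 4 animals. The beta subunit genes Cacnb1, Cacnb3 and Cacnb4 were also higher in excitatory neurons, at -1.0, -0.96 and -0.93.

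The scaling matters for some of these differences. With totals alone in place of TMM (a scaling that assumes most genes do not change), the median of all genes moved from 0.01 to 0.18, 7821 genes were called higher and 4006 lower in place of 5325 and 5439, and members split 13 and 17. Cacna1b (-0.16 with TMM) and Cacna1c (-0.12) then had 0.01 and 0.05 and were not called (edgeR adjusted p = 0.805 and 0.268), and their CPM was higher in inhibitory neurons in 3 of 4 animals. Cacna1h (-0.45 with TMM) kept its direction with totals alone but was not called either (-0.28, edgeR adjusted p = 0.0719).

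**Figure D2:**
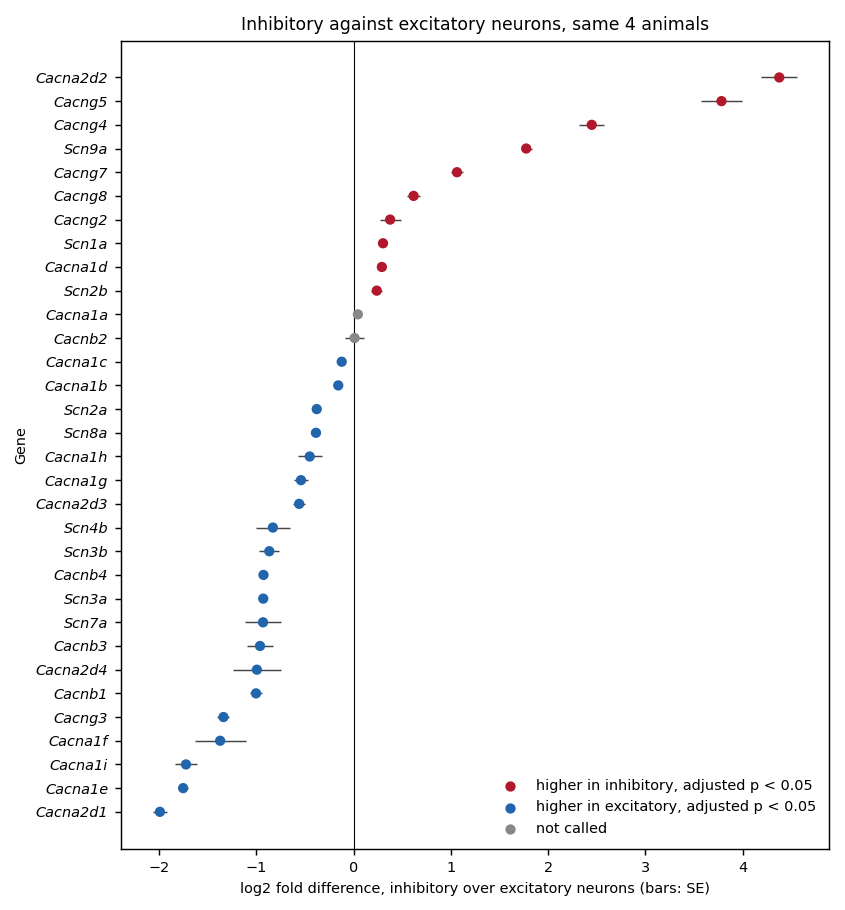
Log2 fold difference between inhibitory and excitatory neurons for 32 of the 34 members tested, from edgeR with the animal as a block and TMM scaling. Points are estimates, bars are standard errors, red and blue mark adjusted p under 0.05, and grey marks members that did not pass. Cacna2d2 lies above 4 and Cacna2d1 near -2, while Cacna1b and Cacna1c, close to 0, changed sign when libraries were scaled by totals alone.

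Pregnant and non-pregnant mice were compared to ask which channel genes differ in mid-gestation. With 2 animals a group, the adjusted p values rest on the spread between these libraries, which the labels describe as biological replicates. Over the cell types, 424 pairs of a member and a type were tested, covering 34 members, and 8 pairs (1.89%) passed with edgeR, 7 higher and 1 lower in pregnant mice, against 0.659% of the pairs over all genes. The 8 pairs involved 5 members in 4 types, all of them excitatory neurons of the deeper layers: L5 IT, L5 ET, L5/6 NP and L6 CT. Whether pregnancy acts differently in these types and in the others was not tested.

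The sequences before the start sites of Cacnb2 and Cacna1c, which rose together in L5 ET neurons, and of Cacng2, which fell in excitatory neurons, are given for reference. Each window holds 250 bases before to 50 after an annotated start, from RefSeq on build GRCm38.p6, which differs from the build of the counts. The Cacnb2 window is chr2:14604056-14604355 (plus strand), 1 of 2 for that gene, the Cacna1c window chr6:119108446-119108745 (minus strand), 1 of 3 for that gene, and the Cacng2 window chr15:78119231-78119530 (minus strand). Capitals mark matches on either strand to the motifs searched.
Cacnb2: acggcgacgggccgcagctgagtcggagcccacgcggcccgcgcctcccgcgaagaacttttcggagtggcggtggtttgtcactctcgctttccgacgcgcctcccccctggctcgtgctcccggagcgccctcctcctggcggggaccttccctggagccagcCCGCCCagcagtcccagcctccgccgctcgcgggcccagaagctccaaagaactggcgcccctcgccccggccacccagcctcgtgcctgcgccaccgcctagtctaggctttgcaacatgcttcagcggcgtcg
Cacna1c: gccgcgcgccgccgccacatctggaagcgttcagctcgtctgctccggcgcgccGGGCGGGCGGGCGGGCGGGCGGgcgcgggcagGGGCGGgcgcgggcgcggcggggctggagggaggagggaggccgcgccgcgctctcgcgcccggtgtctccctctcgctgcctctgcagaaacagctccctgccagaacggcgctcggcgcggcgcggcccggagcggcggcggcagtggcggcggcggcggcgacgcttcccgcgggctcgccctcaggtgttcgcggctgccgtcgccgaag
Cacng2: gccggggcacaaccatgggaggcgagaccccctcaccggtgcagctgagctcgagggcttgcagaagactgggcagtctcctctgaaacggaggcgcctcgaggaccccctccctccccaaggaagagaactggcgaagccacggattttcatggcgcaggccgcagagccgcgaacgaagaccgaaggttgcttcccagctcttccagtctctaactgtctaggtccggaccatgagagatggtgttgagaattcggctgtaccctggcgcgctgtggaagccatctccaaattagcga
The windows hold 71.7%, 81.3% and 61.0% G and C, against a median of 52.7% over all 32851 windows and 59.3% over the 41 windows found for 30 members. The motifs searched, on both strands, were the GC box (GGGCGG), the TATA box (TATAAA), the E-box (CACGTG), the core of cAMP response elements (TGACG) and the core of nuclear receptor sites (AGGTCA). Matches of the E-box and of the cAMP response core can share bases. GGGCGG was in 35.7% of all windows and 39.0% of the member windows, TATAAA in 13.6% and 4.88%, TGACG in 20.8% and 14.6%, and AGGTCA in 16.3% and 9.76%. CACGTG was in 7.15% of all windows and in 0 of 41 member windows. The Cacnb2 and Cacna1c windows printed hold only the GC box, and the Cacng2 window holds no match to these letters. Windows of the same genes that are not printed differ: the other Cacnb2 window, chr2:14823842-14824141, has no GC box but a TGACG match, as does the Cacna1c window chr6:119196360-119196659, and the Cacna1c window chr6:118757925-118758224 has no match.

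Cacnb2, which encodes a calcium channel beta subunit, was the member called in the most cell types. In L5 ET neurons it stood at 189 and 159 CPM in the non-pregnant libraries and 299 and 293 in the pregnant ones, a rise of 0.80 on the log2 scale (SE 0.11, edgeR adjusted p = 2.61e-04). In L6 CT neurons the values were 191 and 147 against 321 and 292, a rise of 0.89 (SE 0.12, adjusted p = 0.00979 by edgeR). In both types the groups were far apart relative to their spread. In L5 IT neurons Cacnb2 was at 235 and 227 against 369 and 327, a rise of 0.62 (SE 0.11, edgeR adjusted p = 0.00600). L5/6 NP neurons, where it was the only 1 of 28 members called (1.01% of all genes were called higher), had 419 and 355 against 579 and 516, a rise of 0.53 (SE 0.13, edgeR adjusted p = 0.0258). In all 4 types both pregnant libraries lay above both non-pregnant ones.

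The same gene was above the non-pregnant range in both pregnant libraries of L2/3 IT, L4/5 IT and L6 IT neurons, without passing. Its log2 fold changes there were 0.27, 0.29 and 0.20 (edgeR adjusted p = 0.526, 0.468 and 0.589). Over all excitatory neurons it was at 346 and 343 against 459.6 and 438 CPM (0.37, SE 0.08, edgeR adjusted p = 0.0694). Inhibitory neurons had 461 and 451 against 420.1 and 452, which overlapped (-0.07, SE 0.08). The difference of the pregnancy effect between the classes, inhibitory minus excitatory, was itself tested and was -0.42 (SE 0.07, edgeR adjusted p = 0.00548). In L5 ET neurons the rise of Cacnb2 passed under all 14 other settings tried, between 0.69 and 0.92. The L5 IT, L5/6 NP and L6 CT calls were lost without pregnant replicate 1 (edgeR adjusted p = 0.285, 0.461 and 0.365), the L6 CT call also without pregnant replicate 2 (0.188), and the L5/6 NP call without non-pregnant replicate 2 (0.257). The L5/6 NP call was also lost with DESeq2 (0.0579), without the doublet filter (0.0660) and with equal nuclei per fine cluster (0.447).

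**Figure D3:**
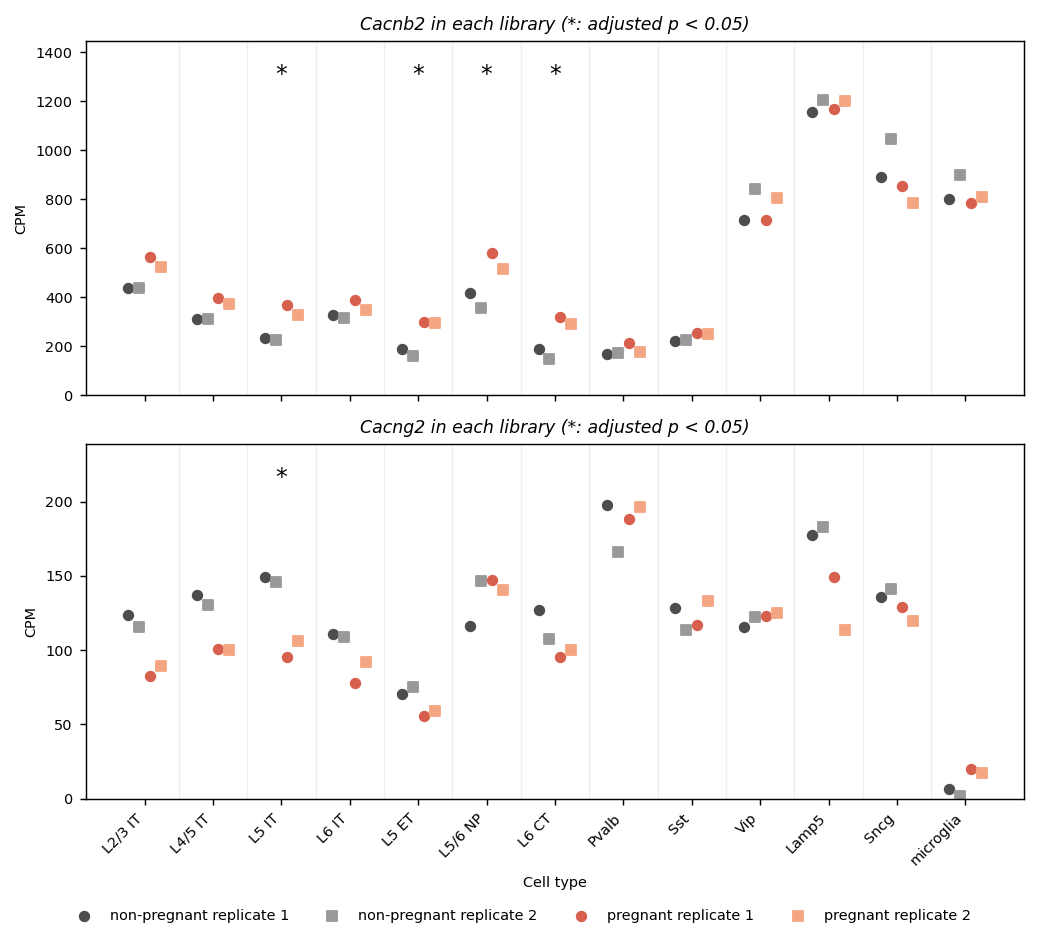
Level of Cacnb2 (top) and Cacng2 (bottom) in each library, in CPM, for the 12 neuronal types and microglia. Grey points are non-pregnant and red or orange points pregnant libraries, circles replicate 1 and squares replicate 2, and a star marks adjusted p under 0.05. Cacnb2 lies higher in both pregnant libraries in all 7 excitatory types, and Cacng2 lies lower in 6 of them, L5/6 NP neurons being the exception.

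L5 ET neurons, the large cells that project to the brainstem and spinal cord, had 3 of 29 members called, all higher (1.4% of all genes tested there were called higher), the most of any type. Beside Cacnb2 these were Cacna1c and Scn3a. Cacna1c, the main L-type pore gene, was at 290.1 and 303 CPM in non-pregnant and 459 and 431 in pregnant libraries, a rise of 0.62 (SE 0.11, edgeR adjusted p = 0.00332). It passed under all 14 other settings, between 0.53 and 0.72. In L5 IT, L5/6 NP and L6 CT neurons Cacna1c was also above the non-pregnant range in both pregnant libraries, but at log2 fold changes of 0.29, 0.37 and 0.26 it did not pass (edgeR adjusted p = 0.304, 0.218 and 0.307). The same held in L6 IT neurons, at 395 and 398 against 457 and 430 CPM, and in every cluster of L2/3 IT and L4/5 IT neurons. Cacna1c did not pass with edgeR in those types either, so its higher level was not particular to the deeper layers. In L5 ET neurons Scn3a was at 65.1 and 58.8 against 77.5 and 84.9 CPM, a rise of 0.42 (SE 0.11, edgeR adjusted p = 0.0459). That call was lost under 9 of 14 settings, among them the DESeq2 test (0.140). Leaving out non-pregnant replicate 2 gave 0.145, and leaving out either pregnant replicate 0.246 and 0.247.

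Other members of L5 ET neurons were close to the threshold. Cacnb4 had a log2 fold change of 0.46 (edgeR adjusted p = 0.0503) and the T-type gene Cacna1i of 0.43 (0.0535). The median over the 29 members was 0.20, against -0.01 over all genes tested, and 13 had an unadjusted p under 0.05, against 14.9% of all genes. Markers of some other excitatory types moved in the same sums. The 8 L5/6 NP markers summed to 249 and 321 CPM in non-pregnant and 422 and 554 in pregnant libraries. Of the 6 of them tested, 2 were called higher. The 6 L5 IT markers summed to 345 and 294 against 494 and 448, with 1 of 5 tested called higher and 1 lower. L4/5 IT markers were at 1130 and 1096 against 1264 and 1305, and the sums of L2/3 IT, L6 IT and L6 CT markers overlapped between groups. The L5 ET markers themselves were at 520 and 543 against 656 and 640. Median UMIs per L5 ET nucleus were 24423, 35095.5, 34881.5 and 29943.5, with no separation of the groups. The part of these marker shifts in the channel results was not tested.

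L6 CT neurons had 2 of 30 members called, both higher (0.788% of all genes there). Cacna2d3, an alpha2delta gene, rose from 12.4 and 12.7 to 30.6 and 31.3 CPM, by 1.31 (SE 0.16, edgeR adjusted p = 0.00506). These levels rest on 47 to 214 UMIs a library. In L6 IT neurons the same gene was at 869 ± 18.8 CPM. The 6 L6 IT markers summed to 385 and 235 CPM in the non-pregnant and 429 and 368 in the pregnant L6 CT sums, the 6 L5 IT markers to 109 and 74.4 against 192 and 190.1 and the 8 L5/6 NP markers to 601 and 493 against 863 and 789, while the 7 L6 CT markers were at 4538 and 4544 against 4332 and 4269. The call was lost with finer clusters (Leiden resolution 2), where the value was 0.63 (edgeR adjusted p = 0.233), and without either pregnant replicate (0.240 and 0.209). The part of the marker shifts in this rise was not tested. The other called types had such shifts as well. In L5 IT sums the 6 L5 ET markers were at 17.3 and 14.5 against 57.1 and 51.4 CPM. In L5/6 NP sums the 6 L6 IT markers were at 8.58 and 11.1 against 41.9 and 23.8. Of those 6, 2 were at 0 in every library and only 1 was tested. The non-pregnant L5/6 NP sums held 1281642 and 993532 UMIs, so the lower values rest on few UMIs.

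Cacng2, whose product stargazin carries AMPA receptors to synapses, moved the other way. Over excitatory neurons it was at 126 and 119.7 CPM in non-pregnant and 87.2 and 91.5 in pregnant libraries, and fell by 0.47 on the log2 scale (SE 0.07, edgeR adjusted p = 0.0123). In L5 IT neurons, where 2 of 29 members were called, 1 in each direction (1.12% of all genes either way), it stood at 149 and 146 against 95.5 and 106, and fell by 0.54 (SE 0.10, edgeR adjusted p = 0.00822). L2/3 IT neurons had 124 and 116 against 82.5 and 89.1 (-0.53, edgeR adjusted p = 0.0807), L4/5 IT neurons 137 and 131 against 101 and 100.2 (-0.44, 0.123). In L6 IT, L5 ET and L6 CT neurons too both pregnant libraries were below both non-pregnant ones, but these did not pass (edgeR adjusted p = 0.170, 0.150 and 0.404).

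The exceptions among neurons were clear in the values. L5/6 NP neurons had 116 and 147 CPM against 147 and 140.3, and the sum over inhibitory neurons 160.2 and 148 against 153 and 151, so the groups overlapped in both. The difference of the pregnancy effect between inhibitory and excitatory neurons was 0.47 (SE 0.06, edgeR adjusted p = 0.00112). The lower Cacng2 level in excitatory neurons was also present with equal numbers of nuclei drawn from every fine cluster (-0.39, edgeR adjusted p = 0.0352) and without the clusters nearly limited to pregnant libraries. It passed neither without pregnant replicate 1 (0.288) nor without pregnant replicate 2 (0.205), and the L5 IT call was lost in the same ways (0.323 and 0.115). In the whole library Cacng2 was at 123 and 116 against 90.3 and 93.5 CPM and fell by 0.39 (SE 0.07, edgeR adjusted p = 0.0308), a call lost without either pregnant replicate (0.490 and 0.315) and with equal nuclei (-0.27, 0.151).

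In the whole library 2 of 37 members were called, both lower (0.469% of all genes), and in excitatory neurons 3 of 36, all lower (0.726%). Beside Cacng2 both sums held Scn7a, and excitatory neurons Cacnb3. The makeup of the excitatory sums differed between groups. L2/3 IT nuclei numbered 1766 and 1715 in the non-pregnant and 911 and 1213 in the pregnant libraries, and the summed L2/3 IT markers were at 780.0 and 864 against 573 and 683 CPM. The summed L5/6 NP markers were at 275 and 229.8 against 729.6 and 737 CPM, and the part of these shifts in the class results was not tested beyond the settings given with each. Scn7a was at 10.5 and 10.7 CPM in non-pregnant and 6.23 and 5.11 in pregnant excitatory sums and fell by 0.92 (SE 0.14, edgeR adjusted p = 0.0143). In the whole library it was at 9.37 and 9.51 against 5.55 and 4.80 and fell by 0.88 (SE 0.13, edgeR adjusted p = 0.0138).

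Among tested excitatory types Scn7a exceeded a mean of 2 CPM only in L4/5 IT neurons, and within them it was highest in cluster 21, where it was at 73.9 and 83.1 CPM against 61.2 and 42.6. That cluster held 237 and 301 nuclei in the non-pregnant and 140 and 135 in the pregnant libraries. In cluster 0 it was at 24.5 and 11.9 CPM against 19.2 and 25.2, with overlap, and in cluster 5 the level was between 2.93 and 3.59 CPM in every library. Within L4/5 IT neurons as a whole the values were 30.0 and 32.3 against 23.8 and 20.1 CPM, which did not pass (-0.52, SE 0.12, edgeR adjusted p = 0.269). With equal numbers of nuclei per fine cluster the value over excitatory neurons was -0.44 (0.473) and over the whole library -0.52 (0.155), and with the 5 pregnant-limited clusters left out the excitatory value was -0.71 (0.0650). Without either pregnant replicate the calls were lost too (excitatory: 0.150 and 0.237; whole library: 0.327 and 0.270). A sum over a tissue or class cannot tell fewer cells of a type from less RNA per cell, and here both the number of cluster 21 nuclei and its Scn7a level were lower in both pregnant libraries.

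**Figure D4:**
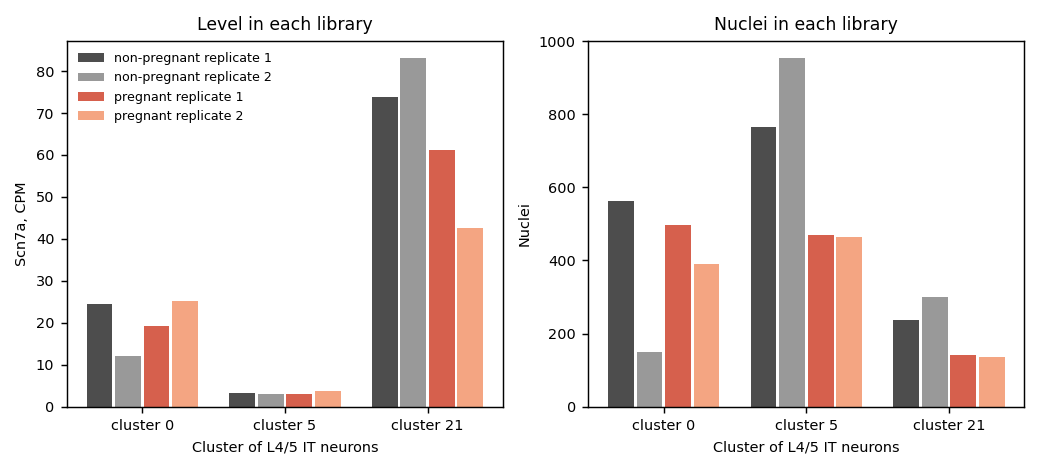
Scn7a in the 3 clusters of L4/5 IT neurons. Bars on the left give the level in CPM and on the right the number of nuclei, for each of the 4 libraries (grey shades non-pregnant, red and orange pregnant). Cluster 21 has the highest level, from 42.6 to 83.1 CPM, and fewer nuclei in the pregnant libraries.

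Cacnb3, a beta subunit gene, was at 21.9 and 24 CPM in non-pregnant and 14.3 and 18.3 in pregnant excitatory sums and fell by 0.52 (SE 0.11, edgeR adjusted p = 0.0479). It was not called in any single type, although both pregnant libraries were below both non-pregnant ones in L2/3 IT, L4/5 IT, L5 IT, L6 IT, L5/6 NP and L6 CT neurons. The call stood at the threshold: it was lost without pregnant replicate 1 (0.605) or 2 (0.222), with equal nuclei (-0.35, 0.294), without the clusters nearly limited to pregnant libraries (-0.47, 0.118), without the doublet filter (0.0501) and with finer clusters (0.0528). Cacna2d2, a gene of Pvalb and Sst neurons, was not called in either class, with 3.21 and 3.73 against 5.94 and 5.19 CPM in excitatory and 96.0 and 117 against 103 and 100.0 in inhibitory neurons. The difference of its pregnancy effect between the classes passed, at -0.72 (SE 0.11, edgeR adjusted p = 0.00235). Within the excitatory types where Cacna2d2 was highest the groups overlapped, with 21.9 and 26.2 against 22.5 and 18.4 CPM in L5 ET and 23.4 and 28.2 against 27.7 and 31.3 in L5/6 NP neurons. In L6 CT neurons they did not, at 3.42 and 3.33 against 5.00 and 6.95 CPM. Those levels rest on 13 to 40 UMIs a library, and the gene was not called there. The numbers of L5 ET nuclei were 196 and 126 in the non-pregnant and 278 and 226 in the pregnant libraries, and those of L5/6 NP nuclei 108 and 66 against 137 and 133. The part of these numbers in the class difference was not tested. In all, 3 of 36 members passed that interaction test, against 1.77% of all genes, and all 3 were lost without pregnant replicate 1 (edgeR adjusted p from 0.113 to 0.295).

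No member was called by edgeR in inhibitory neurons (0.301% of all genes were), nor in Pvalb (0.909%), Sst (0.0338%), Vip (0.158%), Lamp5 (0.993%) or Sncg neurons (0.0835%), and DESeq2 called 0 in each. An unadjusted p under 0.05 was found for 3 of 32 members in inhibitory neurons (7.79% of all genes tested), 6 of 28 in Pvalb (9.08%), 0 of 28 in Sst (5.93%), 2 of 29 in Vip (6.87%), 2 of 24 in Lamp5 (7.59%) and 2 of 29 in Sncg neurons (6.31%). In L2/3 IT (0.102% of genes called), L4/5 IT (0.0686%) and L6 IT neurons (0.632%) edgeR called 0 members and DESeq2 1, 1 and 0. There 5 of 33, 4 of 32 and 3 of 27 members had an unadjusted p under 0.05, against 7.36%, 7.22% and 9.14% of all genes. Neither tool called a member in astrocytes (0.511% of genes called by edgeR), oligodendrocytes (0.0987%), oligodendrocyte precursors (0.136%) or microglia (0.784%). Unadjusted p values under 0.05 numbered 4 of 19, 5 of 20, 2 of 22 and 3 of 17 there, against 7.75%, 7.51%, 6.42% and 8.23% of all genes. On simulated counts, the test found 40% of genes changed 1.5-fold and 75% of those changed 2-fold in L5 ET neurons. It found 47% and 72% in Pvalb neurons, and 10% and 44% in Vip neurons. The simulated spread followed the trend over genes by level and not each gene's own spread, so recovery in the real data may differ.

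**Figure D5:**
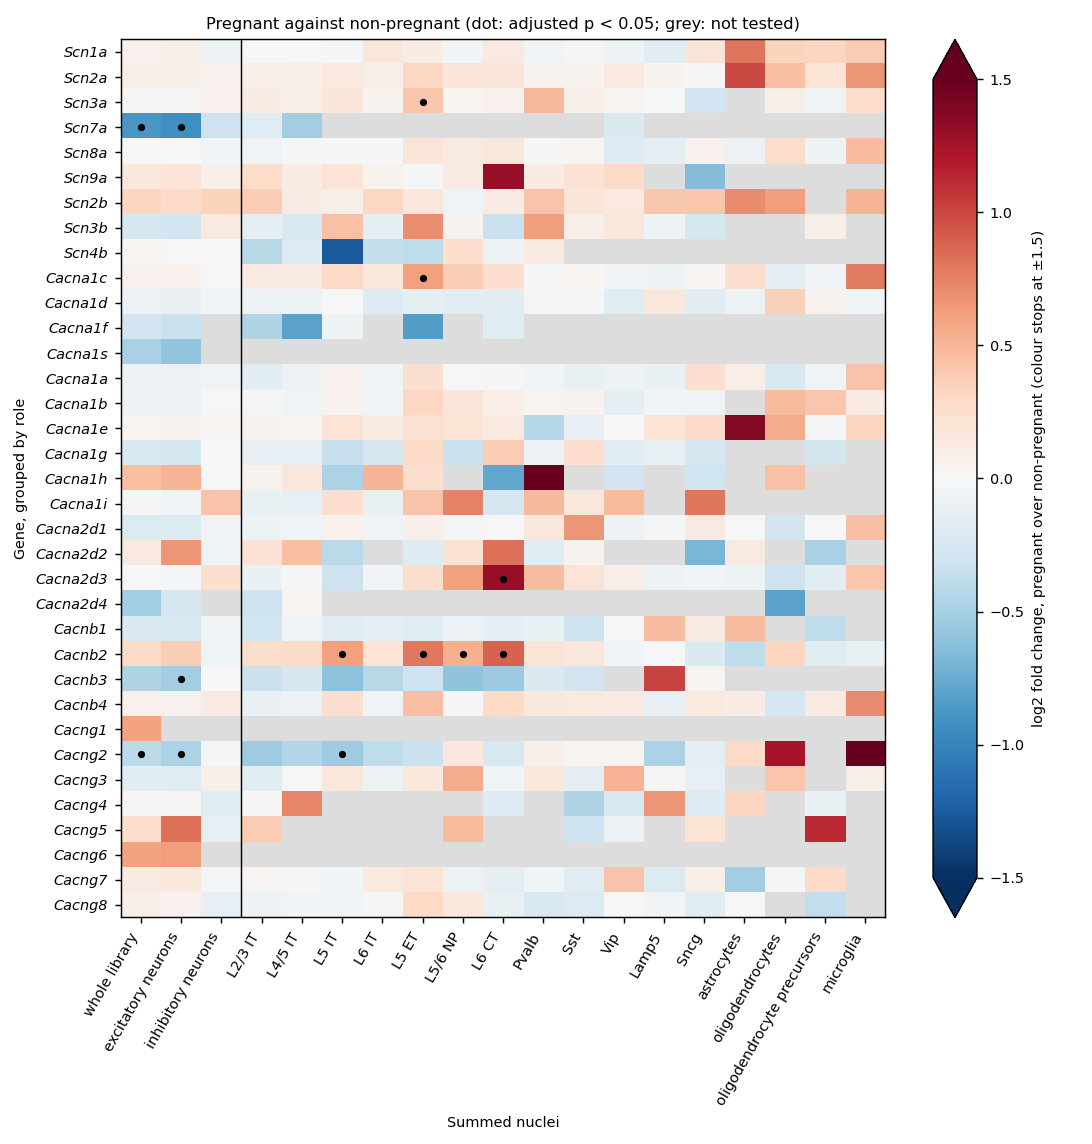
Log2 ratio, pregnant to non-pregnant, for 35 of the 37 members tested, in the whole library, both neuron classes and 16 cell types, by edgeR. Red is higher and blue lower in pregnant mice, a dot marks adjusted p under 0.05 and grey means not tested. Cacnb2 is dotted in 4 deep-layer types, Cacng2 in L5 IT, and the columns of microglia and oligodendrocytes are mostly red without a dot.

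In microglia the median log2 fold change of the 17 tested members was 0.41, and in oligodendrocytes 0.33 over 20, against a value close to 0 over all genes in each. No member passed. The extreme was Cacng2 in microglia, at 6.45 and 1.81 against 19.7 and 17.4 CPM (2.16, SE 0.64, edgeR adjusted p = 0.114). The microglia sums held 609458 to 1107721 UMIs a library, so these Cacng2 levels rest on few UMIs. Mean Cacng2 in microglia was 10.7% of its excitatory level, below the 30.2% of the excitatory neuron markers. Excitatory neuron markers were higher in the same sums: 388 and 253 against 464 and 464 CPM in microglia, and 302 and 199 against 354 and 417 in oligodendrocytes. Red blood cell genes summed to 20.4 and 9.03 against 93.5 and 91.9 CPM in microglia, with 3 of 3 tested called higher, and the microglia markers at 8177 and 8936 against 8009 and 8206. In excitatory neurons they were at 8.61 and 8.04 against 22.5 and 18.7 CPM, with 4 of 5 called higher, while the summed markers of astrocytes, oligodendrocytes, precursors and microglia overlapped between groups or differed by less than 10 CPM. The part of these marker shifts in the channel values was not tested.

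Genes whose products bind or regulate these channels were read from the same fits, as a list of 38. In the whole library and in excitatory neurons the same 2 genes were called, both higher (0.674% and 1.2% of all genes were). Stac, an adaptor that holds L-type channels at the surface, was at 1.63 and 1.52 CPM in non-pregnant and 5.98 and 6.73 in pregnant excitatory sums, a rise of 1.99 (SE 0.15, edgeR adjusted p = 7.87e-04). Cachd1, an alpha2delta-like protein, rose there by 1.23 (SE 0.17, edgeR adjusted p = 0.0103), from 2.42 and 3.28 to 6.09 and 7.55 CPM. In L5 ET neurons Stac alone of 35 tested was called (1.4% of all genes there were called higher). It was at 17.1 and 21.8 against 43.3 and 59.8 CPM (1.43, SE 0.16, edgeR adjusted p = 6.19e-05). In L6 CT neurons 2 of 33 genes of the list were called, both higher (0.788% of all genes). Cachd1 rose there from 1.84 and 3.33 to 11.0 and 13.0 CPM (2.13, SE 0.30, edgeR adjusted p = 0.00979). The non-pregnant L6 CT sums held 3802185 and 6304024 UMIs, so the lower values rest on few UMIs. Alternative settings are not given for the partner genes. The part of the marker shifts and of the differing makeup of the sums in their calls was not tested.

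Calm3, a calmodulin gene whose product makes calcium channels inactivate as calcium enters, rose in inhibitory neurons (0.74), L6 CT (0.97) and Pvalb neurons (0.84), at edgeR adjusted p from 0.00761 to 0.0235. In inhibitory neurons it was at 19.4 and 15.7 CPM in the non-pregnant and 29.2 and 28.9 in the pregnant libraries, which did not overlap. Of the list, 1 of 35 genes was called in inhibitory and 2 of 32 in Pvalb neurons, against 0.301% and 0.909% of all genes. In Vip neurons Stac2 fell by 1.28 (SE 0.27, edgeR adjusted p = 0.0414), from 60.6 and 42.7 to 18.2 and 24.3 CPM. It was the only 1 of 30 called there, against 0.158% of all genes. Microglia had 4 of 26 called, all higher (0.752% of all genes): Nalf1, Nrcam, Rims2 and Cntn1, by 1.89, 1.13, 1.60 and 1.28. Excitatory neuron markers were also higher in these sums, and the part of that shift in these calls was not tested. In L2/3 IT, L4/5 IT, L5 IT, L5/6 NP, Sst and Sncg neurons, astrocytes and oligodendrocytes no gene of the list was called by edgeR. There 2 to 6 of 27 to 34 tested had an unadjusted p under 0.05, against 5.93% to 10.8% of all genes. The most were 6 of 30 in L5/6 NP neurons, against 10.3% of all genes there.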

How the data were processed

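The authors deposited UMI counts per gene and barcode for each of the 4 libraries, made with Cell Ranger 10.0.0 on GRCm39, per the submitters' processing notes. Barcodes with under 500 genes or over 5% mitochondrial UMIs and the 5% with the highest simulated-doublet score were left out. Nuclei were clustered with scanpy 1.11.5 (2000 variable genes without the members, 40 components, 20 neighbours, Leiden resolution 1) and named by marker lists, so a name means resemblance by markers. Raw counts were summed per type and library and tested with edgeR 4.0.16 (quasi-likelihood, TMM, minimum count 10, Benjamini-Hochberg over all genes of the unit, called at adjusted p under 0.05), with DESeq2 1.42.0 as an alternative. The script was checked on simulated counts. The classes and their interaction were fitted with the animal as a block. The members, gene lists and tests were chosen with earlier results of these data known. Every called member is named with its values; otherwise up to 6 members a role that reached 10 CPM in a type are described, and up to 4 called partner genes a unit. Alternatives covered normalisation, filters, single libraries left out, pairing, doublets, equal nuclei and cluster resolution. Promoters came from RefSeq. A few genes that entered the fits and counts are not reported here.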

Additional observations from a re-analysis of the deposited data

Results flagged for a closer look

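The test of whether the pregnancy effect differs between inhibitory and excitatory neurons passed for 3 members. The difference, inhibitory minus excitatory on the log2 scale, was -0.42 for Cacnb2, -0.72 for Cacna2d2 and 0.47 for Cacng2. Cacnb2 and Cacna2d2 were above the non-pregnant range in both pregnant excitatory sums and overlapped between groups in inhibitory sums. Cacng2 was below the non-pregnant range in excitatory sums and overlapped in inhibitory ones. Each of the 3 differences passed under 7 of the 8 alternatives run for this test and was lost without pregnant replicate 1. Those 8 did not include the DESeq2 test, equal nuclei, finer clusters or leaving the doublet filter out.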

How the results depend on the processing

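No called pregnancy result changed direction under any alternative run for it, and directions of values that were not called are not covered here. Cacna1b and Cacna1c changed sign between the classes with totals alone (from -0.16 to 0.01 and from -0.12 to 0.05 on the log2 scale). With single animals left out, called counts ranged over 0 to 6 members in the whole library (2 with all 4 animals), 0 to 7 in excitatory neurons (3), 0 to 4 in L5 IT (2), 0 to 4 in L2/3 IT (0), 0 to 1 in L6 IT (0), 0 to 3 in L4/5 IT (0), 2 to 4 in L5 ET (3), 0 to 2 in L5/6 NP (1), 0 to 3 in L6 CT (2), 0 to 1 in Pvalb, Sst, astrocytes and microglia (0 each), 0 to 4 in oligodendrocytes (0) and 0 to 6 for the class interaction (3). Without any 1 replicate of either group, that group holds 1 library, whose spread is taken from the others. More of the called results were lost without a pregnant than without a non-pregnant replicate. DESeq2 called 5 members in excitatory neurons, 0 in L5/6 NP and 1 each in L4/5 IT and L2/3 IT. Without a filter on low counts the numbers were 6 in excitatory neurons, 2 in L4/5 IT, 6 in L5 ET, 1 in L2/3 IT, 2 in oligodendrocytes and 8 for the interaction. With totals alone, an alternative added after seeing the data, they were 5 in excitatory neurons and 1 in L2/3 IT. With equal nuclei per fine cluster they were 0 in the whole library, 1 in excitatory neurons, 1 in L2/3 IT and 0 in L5/6 NP. Leaving out the clusters nearly limited to pregnant libraries left 1 in excitatory neurons, and adding them to the nearest type gave 1 in L2/3 IT. Without the doublet filter 5 were called in L5 ET and 0 in L5/6 NP, and at Leiden resolution 2 there was 1 in L6 CT, 1 in Pvalb and 1 in oligodendrocytes. The share of all genes called under each setting is not given here, so these counts are not read as results about the members. The causes were not tested.

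Replicate numbers do not pair the animals: same-numbered libraries correlated at -0.091 to 0.065 in their deviations. With a replicate block 6 members were called in excitatory neurons, 1 in L2/3 IT, 0 in L5 IT and 2 in L5/6 NP. The share of all genes called with this block is not given here either. Recovery of simulated 1.5-fold changes was between 10% and 47% over the units.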
